A study of Mus musculus with 6 samples.

Results

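Calcium handling by the sarcoplasmic reticulum (SR) was described here through 10 genes: Ryr2, Fkbp1b, Casq2, Trdn and Jph2 on the release side, Atp2a2, Pln and Sln on the uptake side, Slc8a1 for efflux across the sarcolemma, and the kinase gene Camk2d. They were chosen by name, with earlier results of these data known, and the rule itself uses no measured value. All 10 were found among the 43432 genes of the deposited table, with 1 row each, after case was ignored, because the table writes symbols in capitals. RNA was sequenced from atrial tissue, right and left, of 3 obese and 3 lean wild-type C57/Bl6 mice (genotype C57/Bl6J). Obese mice received a high-fat diet (HFD) and lean mice control chow, each for 10 weeks from 6 weeks of age. No allele or drug distinguished the groups, and the labels give neither sex, litter nor pooling. In all 6 samples a treatment entry in the labels names the diet opposite to that in the sample title and in the column names. The titles were followed, so every direction given here would turn if that entry were the right one.

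With each heartbeat, calcium that enters through L-type channels opens ryanodine receptors, and the SR releases its stored calcium toward the myofilaments. The SR calcium pump then returns it, while the sodium-calcium exchanger removes calcium from the cell. The pump is held back by the small membrane proteins phospholamban and sarcolipin, and in the mouse heart sarcolipin is known as a largely atrial protein. Phosphorylation of phospholamban by protein kinase A or by calcium/calmodulin-dependent kinase II relieves its brake on the pump. Leak from the SR and altered uptake are much studied in atrial fibrillation.

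Between 15874251 and 28971508 reads lay on genes in a sample, and lean mouse 2 was the deepest. Mitochondrial genes held between 19.5% and 30.7% of the reads, lowest in obese mouse 3 and highest in lean mouse 2. Values are normalized counts, the authors' read count divided by a size factor for each sample. For the 15275 genes whose mean over the mice reached 10, obese and lean atria were compared by limma after log2(normalized count + 1), a scale that understates the change of low genes. P values measure the spread between these samples, which are not described further in the labels. In whole tissue, fewer cells of a type and less RNA per cell cannot be told apart. Atrial myocyte markers were present in every mouse, from Kcna5 with 149 to 272 normalized counts to Nppa with between 171702 and 333975. Of the other tissues checked, lung epithelium markers were at or near 0 (2 of 3 at 0 in every mouse, the list summing to at most 1.14), lymphoid markers summed to at most 23.5 and skeletal muscle markers to at most 102.

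The results turned mainly on Pln, which encodes phospholamban, and on Sln, which encodes sarcolipin. Their coding sequences are shown because they are very short, 52 and 31 codons before the stop, and make up only 5.76% and 7.28% of the exon bases of these genes. Both are given 5′ to 3′ from the GENCODE annotation of GRCm38, with the start and stop codons in capitals.
Pln: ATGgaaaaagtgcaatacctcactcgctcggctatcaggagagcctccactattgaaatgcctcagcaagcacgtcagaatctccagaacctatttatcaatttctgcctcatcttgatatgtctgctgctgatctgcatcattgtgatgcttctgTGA
Sln: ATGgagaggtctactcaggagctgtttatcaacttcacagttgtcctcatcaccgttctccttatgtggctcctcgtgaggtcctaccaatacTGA
Pln lies on chromosome 10 from 53337686 to 53345999 on the plus strand, and Sln on chromosome 9 from 53850251 to 53853844 on the plus strand. No other annotated gene overlaps Sln. Pln lies within Cep85l, a gene on the opposite strand that spans 53273443 to 53379947. A noncoding gene on that strand, Gm47644, spans 53337753 to 53345085 and was matched to no row of the table. Whether strand was used in counting is not stated in the methods. Cep85l had between 25.8 and 70.5 normalized counts in the 6 mice, against 21463 or more for Pln.

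None of the 10 genes had an adjusted P under 0.05 in limma, against 0.746% of all genes tested (114 of 15275). At an unadjusted P under 0.05 there were 2 of 10, Pln and Sln, both lower in obese atria, against 12.2% of all genes in either direction and 5.55% in the lower one. The same 2 genes were the only members whose obese and lean mice did not overlap, against 18% of all genes in either direction and 9.17% in the lower one. The median log2 fold change (obese minus lean) of the 10 genes was -0.07, beside 0.00 for all genes, and 5 of 10 lay below 0, against 49.2% of all genes. A DESeq2 test of the recovered reads, tried as an alternative beside edgeR, which called none, called 1 of the 10 genes, Pln, against 3.34% of the genes to which it gave an adjusted P.

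**Figure D1:**
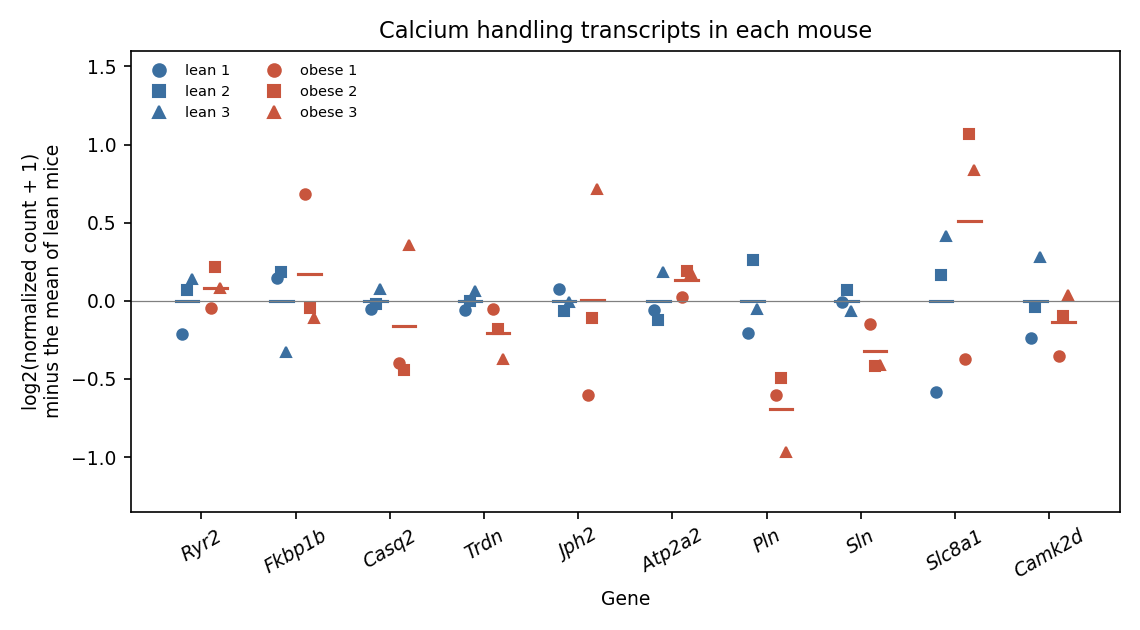
Each point is 1 mouse, and the vertical axis gives its log2(normalized count + 1) minus the mean of the 3 lean mice for that gene, with short lines at the group means. The obese points of Pln and Sln all lie below the lean points, while Jph2 and Slc8a1 spread widely among obese mice.

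Atp2a2 encodes SERCA2, the calcium pump of the cardiac SR, and lies on chromosome 5 from 122442702 to 122502225 on the minus strand. It had 243616, 232428 and 288302 normalized counts in lean mice 1, 2 and 3 and 258473, 289358 and 286646 in obese mice 1, 2 and 3. The groups overlapped, with means of 254782 ± 29563 and 278159 ± 17102 (SD, n = 3 mice per diet). Its fold change on the log2 scale was 0.13, with a 95% interval from -0.33 to 0.59 (limma, adjusted P = 0.854), which leaves room for a level between 20.4% lower and 50.6% higher in obese atria.

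Pln had 36457, 50416 and 40473 normalized counts in lean mice 1, 2 and 3 and 27651, 29886 and 21463 in obese mice 1, 2 and 3. Every obese mouse was below every lean mouse, lean mouse 2 was the highest and obese mouse 3 the lowest. The means were 42448 ± 7186 in lean and 26333 ± 4364 in obese atria (SD, n = 3 mice per diet). This was a log2 fold change of -0.69 (SE 0.17, 95% interval -1.08 to -0.30) and a level 38.0% lower in obese atria. The limma P was 0.00254 before and 0.110 after adjustment over all genes, so the difference did not pass the threshold, and Pln ranked 353 of 15275 genes by P. A two-sided exact permutation test gave P = 0.1, its lowest possible value for groups of 3. Leaving out 1 mouse at a time gave log2 fold changes from -0.79 to -0.55 and adjusted P values from 0.116 to 0.389. DESeq2 gave the same log2 fold change of -0.69 with an adjusted P of 0.00151.

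Sln had 26121, 27599.8 and 25151 normalized counts in lean mice 1, 2 and 3 and 23714, 19693 and 19799 in obese mice 1, 2 and 3. The groups did not overlap, but obese mouse 1 lay close to lean mouse 3. The means were 26290.5 ± 1233 in lean and 21068 ± 2292 in obese atria (SD, n = 3 mice per diet), with a log2 fold change of -0.32 (SE 0.13, 95% interval -0.61 to -0.03) and an adjusted P of 0.352 from limma, unadjusted P = 0.0317. With each mouse left out the log2 fold change stayed between -0.41 and -0.28, and the unadjusted P was above 0.05 in 4 of the 6 fits.

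**Figure D2:**
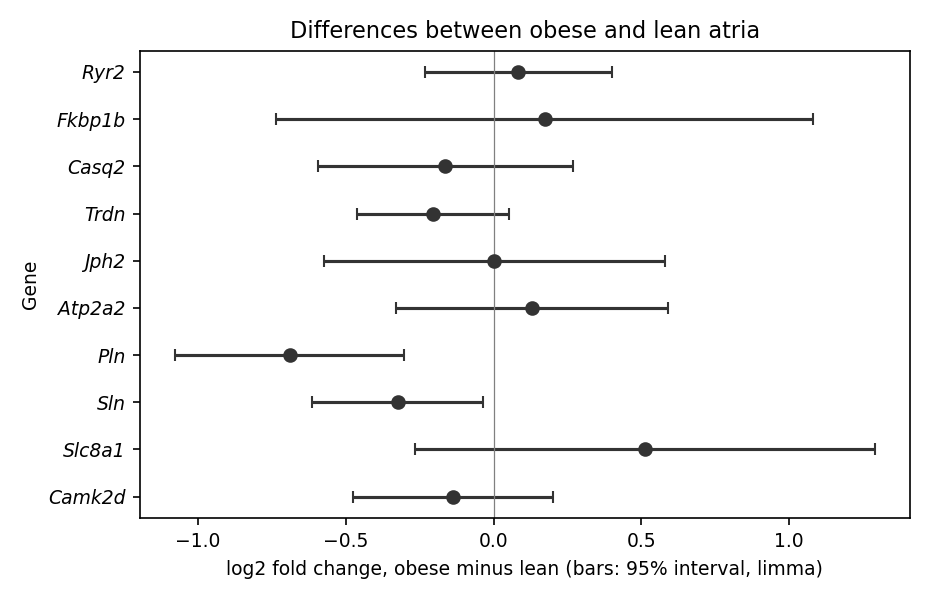
Points are log2 fold changes (obese minus lean) from limma and bars are 95% intervals. The intervals of Pln (-1.08 to -0.30) and Sln (-0.61 to -0.03) lie below 0, and those of the other 8 genes span 0.

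Several measures of the samples were set beside Pln, of which some shared its highest or lowest mouse and others did not. Marker genes of myocytes of either chamber had a mean log2 level 0.21 lower in obese than in lean atria. None of the 8 genes on that list had an adjusted P under 0.05, 2 were lower at an unadjusted P under 0.05 (5.55% of all genes), and the list summed to between 844232 and 854904 normalized counts in lean mice and between 577108 and 987000.4 in obese mice. The atrial myocyte list summed to between 416789 and 455498 in lean mice, while obese mice 1 and 2 had 262998 and 267647 and obese mouse 3 had 500104. Obese mouse 3, the lowest for Pln, thus had the highest sum of the atrial list. It was also the highest for the list of either chamber (987000.4), with 201539 of that sum from Actc1. The 2 lower genes of that list were Tnnt2 and Tnni3. For both, all obese mice lay below all lean mice, beside 9.17% of all genes, and the other genes of the list overlapped. Obese mouse 3 had 99709 and 49850 normalized counts of these 2 genes, against 107918 and 50073 or more in lean mice. Of the 6 atrial genes 1 was lower at an unadjusted P under 0.05 (5.55% of all genes), Myl7, an atrial myosin light chain. Its normalized counts were 60190.2, 56346 and 58183 in lean mice 1, 2 and 3 and 31186, 27168 and 58765 in obese mice 1, 2 and 3 (log2 fold change -0.66, limma adjusted P = 0.317). The other atrial genes went in both directions, with log2 fold changes of -0.44 for Myl4, -0.40 for Nppa, -0.24 for Nr2f2, 0.37 for Kcna5 and 0.62 for Bmp10. When each sample was scaled to the markers of myocytes of either chamber, every log2 fold change shifted up by 0.21, the median of all genes included. Pln then had -0.48 (adjusted P = 0.720) and Sln -0.11 (adjusted P = 0.919). Relative to the median of all genes Pln was at -0.69 before and after, which this scaling cannot change because it moves all genes of a sample alike. Of the 5 ventricular myocyte markers 3 were highest in lean mouse 2 (Myl2, Myl3 and Irx4), Hey2 was highest in obese mouse 1 and Myh7 in lean mouse 3. Myl2 had 8176 normalized counts in lean mouse 2 against 2289.9 to 3470.0 in the other mice, and the summed level of the list ran from 7958 to 17448 in lean and from 6921 to 9918 in obese mice. Without lean mouse 2 the log2 fold change of Pln was -0.56. The share of mitochondrial reads was also highest in lean mouse 2 and lowest in obese mouse 3. With those genes left out at the same total Pln was at -0.69. This step too moves all remaining genes of a sample alike, and the median of all genes shifted by only -0.004. It therefore cannot show what part mitochondrial content had in the difference. Of the brown adipocyte markers 2 of the 3 tested were higher in obese atria (adjusted P under 0.05), against 0.746% of all genes in either direction. Among them was Ucp1 with 5.48 to 86.2 normalized counts in lean and 173 to 745 in obese mice. Of the macrophage markers, Adgre1, Csf1r, Cd68 and Cd14 had log2 fold changes of 0.23, -0.01, 0.37 and 0.60. The remaining marker of the 5, Itgam, was higher in obese atria at an adjusted P under 0.05, beside the same 0.746%. None of the tested markers of fibroblasts, endothelium, smooth muscle, sinoatrial node, white adipocytes or skeletal muscle passed that threshold. The part of these measures in the difference of Pln was not tested beyond these values.

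Ratios within a mouse do not depend on its size factor. Per kilobase of exon, Pln stood at 0.286, 0.415 and 0.269 of Atp2a2 in lean mice 1, 2 and 3 and at 0.205, 0.198 and 0.143 in obese mice 1, 2 and 3. The groups did not overlap, with means of 0.323 ± 0.0799 and 0.182 ± 0.0336 (SD, n = 3 mice per diet). The log2 ratio differed by -0.82 between the groups, 0.566 of the lean ratio, with a two-sided exact permutation P of 0.1, the smallest possible, and 0.533 after adjustment over the 8 ratios computed. It stayed between -0.94 and -0.63 with each mouse left out. Sln stood at 0.418 ± 0.0638 of Atp2a2 in lean and 0.305 ± 0.0536 in obese atria (SD, n = 3 mice per diet, exact permutation P = 0.2), and here obese mouse 1 (0.367) lay above lean mouse 3 (0.349). Between the inhibitors, the ratio of Sln to Pln was 1.32 ± 0.177 in lean and 1.70 ± 0.287 in obese atria (SD, n = 3 mice per diet, exact permutation P = 0.2). The other 5 ratios, of exchanger to pump, of Casq2, Fkbp1b and Jph2 to Ryr2, and of Trdn to Casq2, had exact permutation P values of 0.5 or more.

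**Figure D3:**
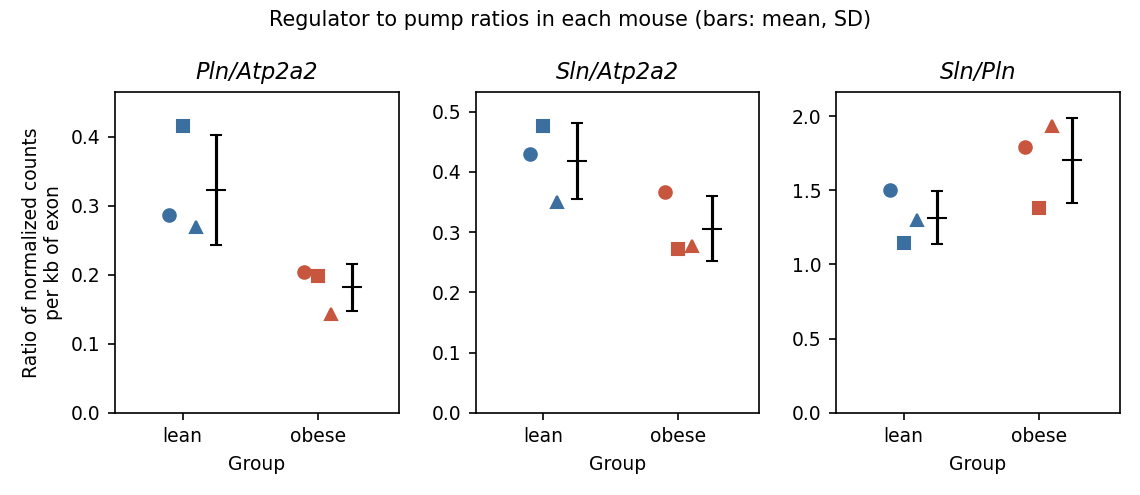
Points are the ratios of normalized counts per kilobase of exon in each mouse (circle, square and triangle for mice 1, 2 and 3), and bars show mean and SD. The ratio of Pln to Atp2a2 was between 0.269 and 0.415 in lean and between 0.143 and 0.205 in obese mice, whereas the other ratios overlapped.

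On the release side, Ryr2 encodes the cardiac ryanodine receptor (chromosome 13, 11553103 to 12106945, minus strand). It had 21031, 25572 and 26856 normalized counts in lean mice 1, 2 and 3 and 23583, 28345 and 25740.1 in obese mice 1, 2 and 3. The groups overlapped, and the log2 fold change was 0.08 (95% interval -0.23 to 0.40, limma adjusted P = 0.867). Fkbp1b, which encodes the small immunophilin bound to the cardiac channel (chromosome 12, 4833175 to 4841595, minus strand), was barely sampled. It was counted with 22, 37 and 16 reads in lean mice 1, 2 and 3 and 36, 21 and 18 in obese mice 1, 2 and 3, or 24.6, 25.3 and 17.5 against 36.2, 21.4 and 20.4 normalized counts. The exact 95% Poisson interval of the 16 reads was 9.15 to 26.0, counting error only. The log2 fold change of 0.17 had a 95% interval from -0.73 to 1.08, which bounds a difference only loosely. Its paralog Fkbp1a, whose product binds ryanodine receptors as well, had 2478 ± 145 normalized counts in lean and 2384 ± 324 in obese atria (SD, n = 3 mice per diet).

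Casq2 encodes calsequestrin, the main calcium buffer inside the cardiac SR (chromosome 3, 102086415 to 102146514, plus strand). Its normalized counts were 13498, 13755 and 14723 in lean mice 1, 2 and 3 and 10589, 10286 and 17902 in obese mice 1, 2 and 3. Obese mice 1 and 2 lay below all lean mice and obese mouse 3 above them, so the log2 fold change of -0.16 had an interval from -0.59 to 0.27 (limma adjusted P = 0.797). Without obese mouse 3 it was -0.42, with an unadjusted P of 0.00323 and an adjusted P of 0.0928. Without obese mouse 1 it was -0.04 and without obese mouse 2 -0.02 (limma adjusted P = 0.961 and 0.986). Jph2 encodes junctophilin 2, which ties the SR to the surface membrane (chromosome 2, 163336242 to 163397993, minus strand). Here too obese mice 1 and 2 lay below all lean mice and obese mouse 3 above them, with 7763, 7061 and 7323 normalized counts in lean mice and 4867, 6835 and 12131 in obese mice 1, 2 and 3. The coefficient of variation was 4.80% among lean and 47.3% among obese mice. The log2 fold change was 0.00 (95% interval -0.57 to 0.58, limma adjusted P = 0.999), and without obese mouse 3 it was -0.35 (adjusted P = 0.285).

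Trdn encodes triadin, the anchor between calsequestrin and the release channel (chromosome 10, 33083483 to 33476709, plus strand). It had 3765, 3924 and 4092 normalized counts in lean mice 1, 2 and 3 and 3785, 3460.3 and 3025 in obese mice 1, 2 and 3. Here obese mouse 3 was the lowest, and obese mouse 1 lay within the lean range. The log2 fold change was -0.20 (95% interval -0.46 to 0.05) with a limma adjusted P of 0.533. Obese mouse 3 was thus the highest of the 6 mice for Casq2 and Jph2 and the lowest for Pln and Trdn. Obese mouse 2 was the highest for 3 of the 10 genes and the lowest for 2. Obese mouse 3 was also the mouse with the most Actc1, cardiac actin, at 201539 normalized counts against 48472 and 65333 in the other obese mice and 86944 to 100697 in lean mice. The part of this mouse's tissue composition in these values was not tested.

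Slc8a1 encodes the cardiac sodium-calcium exchanger (chromosome 17, 81388691 to 81649607, minus strand). Its normalized counts were 565, 953 and 1131 in lean mice 1, 2 and 3 and 654, 1782 and 1517 in obese mice 1, 2 and 3. Obese mice 2 and 3 lay above all lean mice and obese mouse 1 among them. The means were 883 ± 289 and 1318 ± 589.8 (SD, n = 3 mice per diet), and the log2 fold change of 0.51 had a wide 95% interval, from -0.27 to 1.29 (limma adjusted P = 0.617). Without obese mouse 1 it was 0.95 (unadjusted P = 0.00357, adjusted P = 0.161), the largest of the 6 fits with a mouse left out. The smallest was 0.22, and the limma adjusted P in these fits reached 0.909. Camk2d encodes the main cardiac isoform of calcium/calmodulin-dependent kinase II, which phosphorylates phospholamban and the ryanodine receptor (chromosome 3, 126596302 to 126844913, plus strand). It had 2238, 2574 and 3203 normalized counts in lean mice 1, 2 and 3 and 2071, 2470.0 and 2707 in obese mice 1, 2 and 3, overlapping groups with a log2 fold change of -0.14 (95% interval -0.48 to 0.20, limma adjusted P = 0.773).

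Per kilobase of exon, the mean level in lean atria was highest for Atp2a2 (48282 normalized counts per kb), followed by Sln (19947) and Pln (15385). Casq2 (5455), Jph2 (1735), Ryr2 (1343), Trdn (500.1) and Camk2d (313) came next, and Slc8a1 (47.4) and Fkbp1b (22.0) were lowest. The ranges over the 6 mice overlapped between Sln and Pln, between Jph2 and Ryr2 and between Slc8a1 and Fkbp1b, and no other neighbors in this order overlapped. In obese atria Sln had 15985 ± 1739 and Pln 9544 ± 1582 normalized counts per kb (SD, n = 3 mice per diet). These levels are for whole genes over all annotated exons, so an isoform that uses few of those exons is understated.

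Across the 6 mice, the genes whose log2 values followed Pln most closely were mt-Nd5 (Pearson r = 0.990), Lekr1 (0.986), Pithd1 (0.985), Gtf2a2 (0.984) and Cutc (0.983), the highest of 15274 genes compared. The points share the 2 diet groups and the same 6 libraries. In all 5 genes, as in Pln, obese and lean mice did not overlap, against 18% of all genes. Their log2 fold changes ran from -0.68 for Cutc to -0.21 for Gtf2a2, without an adjusted P under 0.05. Because these genes were chosen for following Pln, this direction and lack of overlap were all but fixed by the choice.

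The wider set of calcium handling genes was listed by role and held 94 genes, of which 93 were in the table and 90 were tested. None had an adjusted P under 0.05, against 0.746% of all genes. At an unadjusted P under 0.05, 8 were higher and 8 lower in obese atria, 16 of 90 against 12.2% of all genes (6.66% higher and 5.55% lower), and the median log2 fold change was -0.03. Obese and lean mice did not overlap for 18 of the 90, against 18% of all genes. Without obese mouse 3, 2 of these genes had an adjusted P under 0.05, Atp2a1 and Casq1, with log2 fold changes of 0.74 and -1.55, beside 2.24% of all genes (342 of 15297) in that fit. DESeq2 called 3 of them, Cacna2d2, Saraf and Tcap, beside 3.34% of the genes to which it gave an adjusted P, and edgeR called none.

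**Figure D4:**
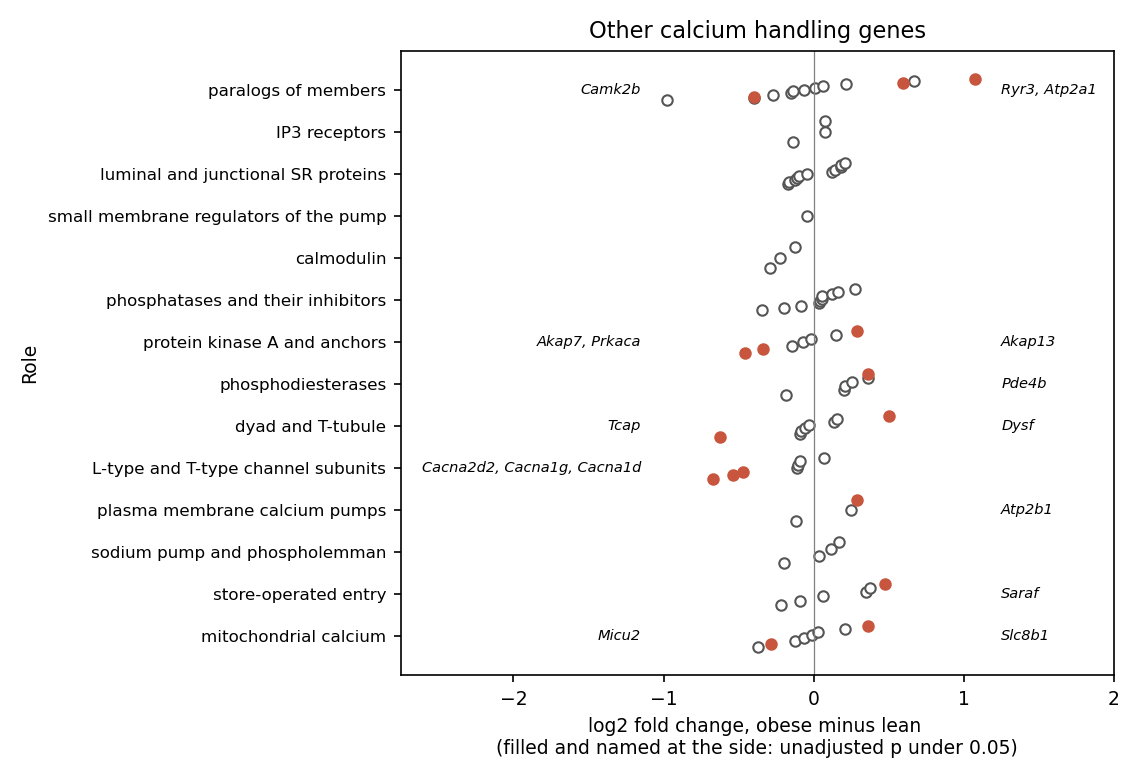
Each point is a gene placed by its role and its log2 fold change (obese minus lean). Filled points, named at the sides, had an unadjusted P under 0.05, 8 lower and 8 higher, and none had an adjusted P under 0.05.

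Among paralogs, Atp2a1, the SR pump of fast skeletal muscle, had 429, 321 and 317 normalized counts in lean mice 1, 2 and 3 and 567, 608 and 437 in obese mice 1, 2 and 3. The groups did not overlap (log2 fold change 0.59, SE 0.17, unadjusted P = 0.00609, limma adjusted P = 0.166). Ryr3, another ryanodine receptor, had 196, 124 and 278 in lean and 204, 578 and 539.5 in obese mice, with obese mouse 1 inside the lean range (log2 fold change 1.08, adjusted P = 0.292). Casq1, the skeletal calsequestrin, had 73.9, 66.4 and 63.4 in lean and 26.1, 19.4 and 76.1 in obese mice, again with obese mouse 3 apart from the other obese mice. Of the kinase paralogs, Camk2b was at -0.40 without overlap (unadjusted P = 0.0250), Camk2g at -0.27 and Camk2a at -0.14 on the log2 scale. Jph1, Slc8a2, Slc8a3, Atp2a3, Jph3 and Jph4 had adjusted P values of 0.896 or more, and Ryr1, the skeletal release channel, was below the level tested, with at most 4.54 normalized counts.

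Of the surface channels, 3 of 7 subunit genes had an unadjusted P under 0.05, all lower in obese atria, beside 5.55% of all genes. Cacna2d2, an auxiliary subunit, had 1728, 1420.1 and 2081 normalized counts in lean mice 1, 2 and 3 and 1043, 1132 and 1067 in obese mice 1, 2 and 3. Its log2 fold change of -0.67 (SE 0.14, limma adjusted P = 0.0657) came closest to the threshold among the 90 genes. Cacna1g, a T-type pore, had 532, 486 and 520.3 against 292, 374 and 399 normalized counts (log2 fold change -0.54, adjusted P = 0.141). Of the 6 genes for store-operated entry, Saraf, which limits that entry, had 4520.1, 4099 and 3987 in lean and 5888, 5741 and 5902 in obese mice, without overlap (log2 fold change 0.48, SE 0.10, adjusted P = 0.0724), while Stim1, the calcium sensor of the store, was at 0.35 with overlapping groups (adjusted P = 0.431). In the dyad and T-tubule group of 8, Tcap, which encodes telethonin, had 12989, 13708 and 11821 in lean and 9955, 9180.5 and 6264 in obese mice (log2 fold change -0.63, SE 0.17, adjusted P = 0.134), and Dysf, which encodes dysferlin, a membrane repair protein, was at 0.51 (adjusted P = 0.233).

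Among regulators of phosphorylation, Prkaca, the catalytic subunit of protein kinase A, had 4107, 4601 and 3787 normalized counts in lean and 3367, 3053 and 3431 in obese mice, without overlap (log2 fold change -0.34, SE 0.11, limma adjusted P = 0.244). Akap7, an anchor of that kinase that binds phospholamban, had 432, 439 and 513 in lean and 369.7, 339 and 301 in obese mice (log2 fold change -0.46, adjusted P = 0.198). Pde4b, a phosphodiesterase that degrades cyclic AMP, had 1048, 994 and 1102 in lean and 1399, 1365 and 1286 in obese mice, also without overlap (log2 fold change 0.37, adjusted P = 0.170), and Pde3b was at 0.36 with overlapping groups. None of the 10 phosphatase genes and inhibitors had an unadjusted P under 0.05, and the smallest values were for Ppp1ca (log2 fold change -0.20, unadjusted P = 0.117) and Ppp1r3a (0.28, unadjusted P = 0.218). The calmodulin genes Calm2 and Calm3 were at -0.23 and -0.29 (adjusted P = 0.424 and 0.462).

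None of the 11 luminal and junctional SR genes had an unadjusted P under 0.05, and the smallest were for Tmem38b, which encodes a potassium channel of the reticulum (log2 fold change 0.21, unadjusted P = 0.138), and Calu (0.18, unadjusted P = 0.147). Of the plasma membrane calcium pumps, Atp2b1 was at 0.29 without overlap (adjusted P = 0.391) and Atp2b2 at 0.25 (adjusted P = 0.718). In the mitochondrial group of 8, Micu2, a gatekeeper of the uniporter, was at -0.28 (adjusted P = 0.320), and Slc8b1, the mitochondrial sodium-calcium exchanger, at 0.36 (adjusted P = 0.402). Fxyd1, which encodes phospholemman, was at -0.20 and Atp1b1, a sodium pump subunit, at 0.12 (adjusted P = 0.624 and 0.776). Itpr2 and Itpr3, which encode inositol trisphosphate receptors, were at 0.08 and -0.14 (adjusted P = 0.864 and 0.828), and Hax1, a pump and phospholamban partner, at -0.04 (adjusted P = 0.931).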

How the data were processed

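RNA from atria of 3 obese (HFD) and 3 lean mice was sequenced by the authors as single-end reads after directional library preparation. The authors checked reads with FastQC, aligned them to GRCm38 (Ensembl 79) with STAR, assigned the reads that mapped uniquely to genes with Salmon and analyzed the counts with DESeq2. Tool versions and the use of strand in counting are not given in the sources used here. The deposited signal is a normalized count, the read count divided by 1 size factor per sample: 100% of values in each sample were whole multiples of the smallest (tolerance 1e-06), which gave reads back. The authors also deposited their own comparison, with log2 fold changes and standard errors, scores (the test statistic and a ranking metric) and P values (p-value and adjusted p-value), and none of it was used. The rows without a gene identifier (1) held no signal.

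Samples were grouped by title. The design foresaw values of this kind, and limma 3.58.1 under R 4.3.3 (eBayes with a variance trend, no covariates) was applied to log2(normalized count + 1) of all genes whose mean reached 10, with Benjamini-Hochberg adjustment over all genes tested and a threshold of 0.05. Ratios and single genes had a two-sided exact permutation test. The limma and edgeR fits were run on simulated counts with the same dispersion for every gene. That setting is simpler than these data, so it does not show how the fits perform on these mice. The members, gene lists and tests were chosen with earlier results of these data known. Named genes are the 10 members, their paralogs, in each other role the 2 genes with the smallest unadjusted P, the 5 genes closest to Pln by Pearson r, and marker genes. Cep85l was added because it overlaps Pln. Symbols came from GENCODE M21, which matched 97.8% of identifiers, and exon lengths from the same annotation. Strit1 was on the list but matched no row by name or GENCODE identifier.

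The alternatives were quantile normalization, no variance trend, no filter, a minimum of 10 in every sample, a pseudocount of 0.1, mitochondrial genes left out at the same total, scaling to myocyte markers, a block for the replicate number, leaving out 1 mouse at a time, and edgeR 4.0.16 (TMM or RLE), DESeq2 1.42.0 and limma voom on the recovered reads. A gene with fewer than 3 reads was not taken as detected, which is 2.05 normalized counts in lean mouse 2 and 3.01 to 3.41 in the others, counting error only.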

Additional observations from a re-analysis of the deposited data

How the results depend on the processing

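None of the 10 members had an adjusted P under 0.05 with limma or edgeR under any alternative, and 1 did with DESeq2 (Pln, log2 fold change -0.69). Of all genes, limma called 114 (74 higher), 0 without a variance trend (1717 at an unadjusted P under 0.05), 470 with DESeq2, and 14 (without lean mouse 2) to 342 (without obese mouse 3) with a mouse left out, namely 50 and 19 without lean mice 1 and 3 and 52 and 24 without obese mice 1 and 2. Scaled to myocyte markers, 117 of 133 called genes were higher. Of the wider calcium handling genes 0 were called, but 1 after that scaling (Ryr3), 3 with DESeq2 (Cacna2d2, Saraf and Tcap), and 0 to 2 with a mouse left out (Atp2a1 and Casq1 without obese mouse 3). Pln and Sln stayed negative under all alternatives, Pln from -0.79 to -0.48 and Sln from -0.41 to -0.11. Small log2 fold changes turned sign. Scaled to myocyte markers, the log2 fold change was 0.0495 for Casq2, 0.00878 for Trdn and 0.0741 for Camk2d, since this scaling adds 0.21 to every gene. Relative to the median of all genes they were at -0.17, -0.21 and -0.14 with or without this scaling, which cannot change that difference. That of Jph2 was -0.00755 with quantile normalization and -0.00173 without mitochondrial genes. With a mouse left out, Ryr2 ran from -0.0216 (without lean mouse 1) to 0.155, Fkbp1b from -0.0810 (without obese mouse 1) to 0.316, Jph2 from -0.355 (without obese mouse 3) to 0.304 and Camk2d from -0.258 to 0.000713 (without lean mouse 3). The cause of the other sign changes was not tested. Both diets carry replicate numbers 1 to 3, but on different mice. Deviations of same-numbered mice from their group means correlated at 0.12, -0.03 and -0.00, and those of differently numbered mice at -0.15 to 0.16. Groups of 3 are too small to tell from this whether same-numbered mice shared more than a label. With the replicate number as a block, 157 genes were called (113 higher), 0 members and 0 wider genes, Pln kept -0.69 (adjusted P = 0.107), and the unadjusted P was 0.0617 for Sln and 0.00853 for Slc8a1 (adjusted P = 0.207). Among the members Fkbp1b rests on the fewest reads, 16 to 37 a mouse.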
